A study of Mus musculus with 6 samples.

Results

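Tnfaip3, Cdk5r1 and Sqstm1 each had an array probe set whose signal, in arbitrary units, was under 100 in every mock-irradiated pre-B cell line and 200 or more in every line 2 hours after irradiation, and they are the genes with such a probe set once a set of named genes is left out. They are 3 of the 18193 genes that the array's platform annotation names singly, and they were chosen by their signals at both doses. Of the 45037 probe sets without controls, 15 crossed both thresholds (0.0333%). Of these, 11 carried 1 gene name and represented 9 genes. The rule leaves out 11 genes by name and 6 of them were among these 9, which left 3. It also leaves out symbols that start with Zfp or Slc, and none of the 9 did. Where several probe sets of a gene crossed, the brightest of them by mean log2 signal would have stood for it, and each of the 3 genes had only 1 that crossed.

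The working name for such genes was that irradiation switched them on from background, and the data go against it at the level of the gene. Each of the 3 genes had at least 1 other probe set that read well above 100 in mock-irradiated cells. The 4 brighter probe sets of the 3 genes gave mock signals of 258 to 5078, and each was higher after 1 Gy in 3 of 3 lines. What crossed from under 100 to 200 or more was therefore a dim probe set of a gene whose transcripts another probe set already registered before irradiation. None of the 3 remained when the brightest of all probe sets of a gene was required to cross, whereas all 6 genes left out by name passed that stricter rule too.

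The irradiated group received 1 Gy of γ-rays, delivered at a dose rate of 0.72 Gy per minute, 2 hours before collection, and the mock-irradiated group received 0 Gy. Both groups were v-abl-transformed pre-B cells of 3 WT lines that express an Eμ-Bcl2 transgene, each line giving 1 array per dose, and both had been in 3 μM STI-571 (imatinib) for 48 hours. The v-Abl kinase drives these cells to divide and STI-571 inhibits it, so that they stop in G1, while Bcl2 protects them from apoptosis, and survival and cell cycle in this model differ from those of pre-B cells in an animal. All 18 genes of pre-B identity on the array read 100 or more on at least 1 mock array. The lines are separate isolates and the array measures a whole culture, in which more cells with a transcript and more transcript per cell cannot be told apart.

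As background, the 3 genes have different roles. Tnfaip3 encodes A20, a ubiquitin-editing enzyme that NF-κB induces and that then restrains NF-κB signalling. Loss of A20 is a recurrent event in B cell lymphomas. Cdk5r1 encodes p35, the activator that the kinase Cdk5 needs, best known from neurons. Sqstm1 encodes p62, a scaffold that carries ubiquitinated cargo to autophagy, binds the Nrf2 inhibitor Keap1, and takes part in NF-κB signalling through TRAF6. NF-κB itself is a family of transcription factors held in the cytoplasm by IκB proteins, and in lymphocytes DNA breaks can release it through the kinase Atm.

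Tnfaip3 is a known NF-κB target and had an annotated start, as did Sqstm1, so the letters around these starts are shown, with matches to the κB consensus in capitals. The windows run from 250 bases before to 50 bases after the start in RefSeq (build GRCm38.p6), on the strand of the gene. The first window of Tnfaip3 lies at chr10:19015361-19015660 on the minus strand and that of Sqstm1 at chr11:50210771-50211070 on the minus strand.
Tnfaip3: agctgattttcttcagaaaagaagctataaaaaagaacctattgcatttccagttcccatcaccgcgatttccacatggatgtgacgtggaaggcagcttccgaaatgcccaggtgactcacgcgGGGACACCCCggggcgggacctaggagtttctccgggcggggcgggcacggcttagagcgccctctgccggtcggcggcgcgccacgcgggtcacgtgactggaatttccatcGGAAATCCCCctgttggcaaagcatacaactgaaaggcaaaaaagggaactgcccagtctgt
Sqstm1: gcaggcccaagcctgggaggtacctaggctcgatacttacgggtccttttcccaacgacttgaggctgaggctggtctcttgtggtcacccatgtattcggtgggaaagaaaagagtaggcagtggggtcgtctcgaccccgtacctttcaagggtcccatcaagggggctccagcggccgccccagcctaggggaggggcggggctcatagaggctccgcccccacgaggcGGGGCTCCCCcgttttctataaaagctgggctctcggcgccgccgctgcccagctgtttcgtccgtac
The Tnfaip3 window held 2 matches, GGGACACCCC with its first base at -125 from the start and GGAAATCCCC at -12. The second annotated start of Tnfaip3 had 0. The Sqstm1 window held 1 match, GGGGCTCCCC at -18. Matches were sought on both strands, and a κB match was present for 9.55% of the 27025 genes with such a window. Of the other motifs searched, the AP-1 motif TGANTCA occurred in the Tnfaip3 window at -136 (8.97% of genes), as did the E-box CACGTG at -33 (8.09%) and the shorter motif TGACG at -168 (23.0%). TATAAA was found in both windows, at -225 for Tnfaip3 and at -1 for Sqstm1 (15.7% of genes). The full site TGACGTCA, the CArG box, the p53 consensus element, the heat shock motif GAANNTTC and the interferon response motif had no match in either window. These matches describe the letters and do not show that a factor was bound.

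Tnfaip3 had 2 probe sets, and both were higher after 1 Gy in all 3 lines. Its dim probe set (1450829_at) read 945, 660 and 567 in irradiated lines 1, 2 and 3, against 81.8, 73.7 and 54.6 in the same lines after mock irradiation. All 3 irradiated signals lay several-fold above all mock signals. The mean log2 fold change was 3.36 ± 0.19 (SD, n = 3 lines), a 10.2-fold difference. Since every mock signal was under 100, it is better read as at least 7.07-fold, with mock signals set to 100. Here and for the other dim probe sets, such a value bounds the ratio of that probe set's signals and sets no minimum for the gene. The other probe set of Tnfaip3 (1433699_at) read 9773, 8069 and 8251 in irradiated lines 1, 2 and 3 and 1566, 1486 and 1471 in mock-irradiated ones. Here the mock signals differed by little between lines, with a coefficient of variation of 3.40%, and the log2 fold change was 2.52 ± 0.10, or 5.75-fold. In both probe sets line 1 had the highest signal after 1 Gy and the largest fold change, and line 2 the smallest fold change.

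Cdk5r1 had the most probe sets, 4, and all were higher after 1 Gy in all 3 lines. The probe set that crossed the thresholds (1421124_at) read 398, 288 and 485 in irradiated lines 1, 2 and 3, against 62.0, 43.0 and 79.0 in mock-irradiated ones. The log2 fold change was 2.68 ± 0.06 (SD, n = 3 lines), the most even of all probe sets of the 3 genes across lines, and corresponded to 6.41-fold, or at least 3.82-fold with mock signals set to 100. Line 3 was highest and line 2 lowest at both doses.
The brightest probe set of the gene (1433451_at) read 6426, 5682 and 7876 in irradiated lines and 676, 498 and 1206 in mock-irradiated ones, a log2 fold change of 3.16 ± 0.41 or 8.91-fold. Another probe set (1433450_at) read 3312, 3224 and 4399 after 1 Gy and 340, 258 and 489 after mock irradiation, a log2 fold change of 3.37 ± 0.25 or 10.3-fold. The order of the lines, line 3 above line 1 above line 2, was the same in these 3 probe sets at both doses, and the fold change ran the other way in all of them, largest in line 2 and smallest in line 3. These probe sets share a gene and its arrays and are not independent of each other.
The remaining one (1421123_at) stayed under 100 on all arrays, with 98.3, 71.9 and 66.4 in irradiated lines and 9.79, 9.27 and 1.34 in mock-irradiated ones, so that no fold is given for it.

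Sqstm1 lay closest to the thresholds. Its dim probe set (1444021_at) read 229, 278 and 250 (249.8) in irradiated lines 1, 2 and 3 and 89.6, 39.4 and 95.8 in mock-irradiated ones. The irradiated signals lay within a narrow range, and the mock signal of line 2 was the one that stood apart. The fold changes were accordingly 2.56 and 2.61 in lines 1 and 3 and 7.06 in line 2, with a mean log2 fold change of 1.85 ± 0.84 (SD, n = 3 lines), at least 2.52-fold with mock signals set to 100. Without line 2 the log2 fold change was 1.37. The bright probe set (1450957_a_at) read 10070 (10070.2), 8821 and 12793 in irradiated lines and 3714, 3867 and 5078 in mock-irradiated ones. It was higher after 1 Gy by a log2 fold change of 1.32 ± 0.13, or 2.50-fold, with line folds of 2.71, 2.28 and 2.52, so that line 2 had the smallest change here and the largest in the dim probe set.

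**Figure D1:**
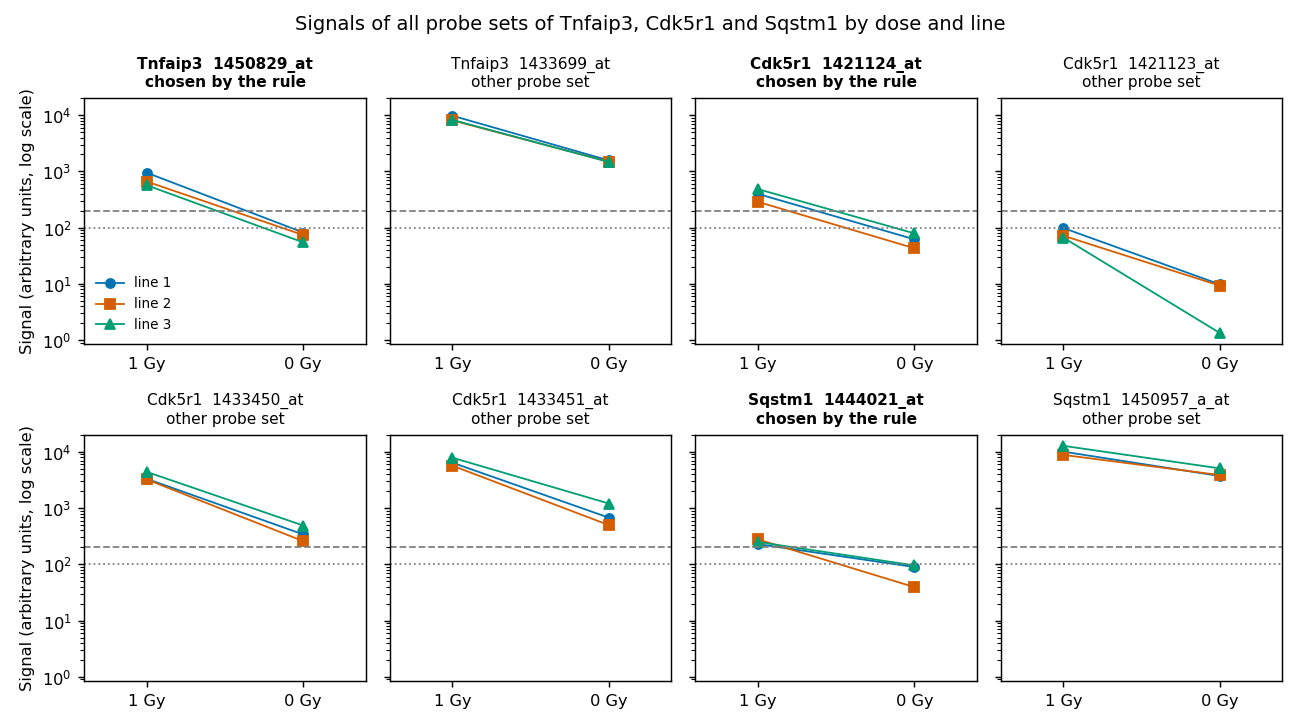
Signal in arbitrary units on a log scale (vertical axis) at 1 Gy and 0 Gy (horizontal axis) for the 8 probe sets of Tnfaip3, Cdk5r1 and Sqstm1, with 1 joined pair of points per cell line, a dotted line at 100 and a dashed line at 200. The probe sets in bold titles cross both lines, and 4 of the other 5 lie above 200 already at 0 Gy.

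The irradiated signals of the chosen probe sets ran from 229 to 945 over the 3 genes and lines, and the mock signals from 39.4 to 95.8. Between lines, the highest irradiated signal of a chosen probe set was 1.67 times the lowest for Tnfaip3, 1.68 times for Cdk5r1 and 1.21 times for Sqstm1. No line was highest for all 3 genes, since line 1 led for Tnfaip3, line 3 for Cdk5r1 and line 2 for Sqstm1. With 1 array per line and dose, these differences between lines have no replicate of their own and were not tested.

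**Figure D2:**
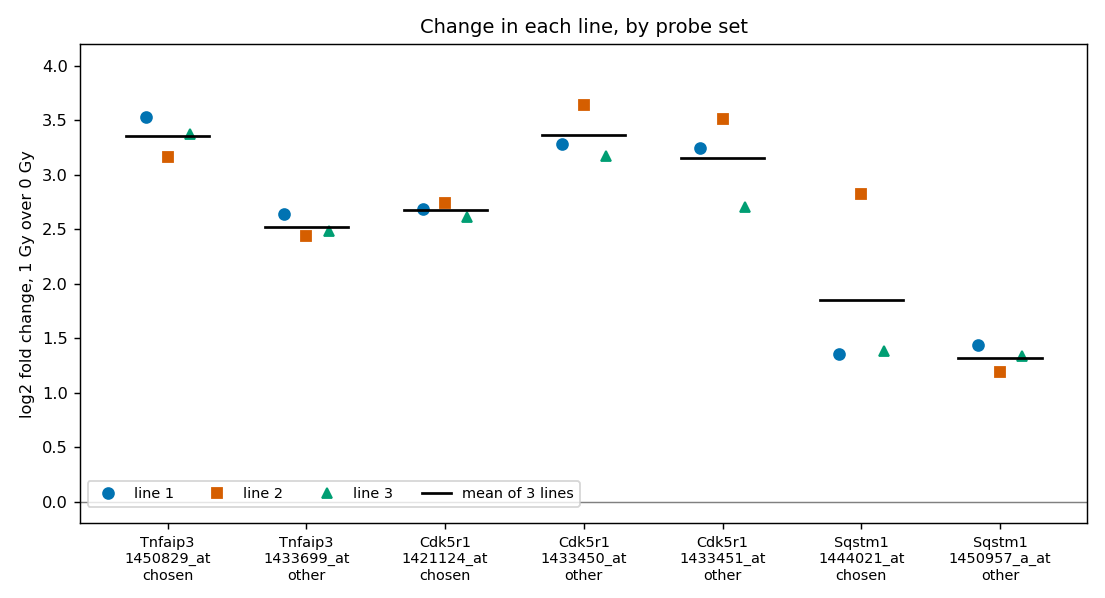
Log2 fold change of 1 Gy over 0 Gy (vertical axis) in each of the 3 lines (symbols) and as their mean (bar) for 7 probe sets (horizontal axis), leaving out the Cdk5r1 probe set that stayed under 100. All 21 points lie above 0, which the rule required of the chosen probe sets, and line 2 of the chosen Sqstm1 probe set lies furthest from its own mean.

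The size of the change in the dim probe sets depended on how mock signals under 100 were treated. Whether it was larger or smaller than in the bright ones did not for Tnfaip3 and Cdk5r1. For Tnfaip3 the log2 fold change was 3.36 in the dim one, or 2.82 with signals under 100 set to 100, and 2.52 in the bright one. For Cdk5r1 it was 2.68 in the dim one, or 1.93 with that floor, and 3.16 and 3.37 in the bright ones. For Sqstm1 it was 1.85 in the dim one, or 1.33 with the floor, and 1.32 in the bright one, so that the gap was gone with the floor. The position of each probe set along its transcript was not used here. For the Actb controls, the 3′ signal divided by the 5′ signal, a sign of RNA quality, was 1.32 ± 0.06 on irradiated arrays and 1.45 ± 0.05 on mock arrays (SD, n = 3 lines), lower after 1 Gy in 3 of 3 lines. For the Gapdh controls it was 0.80, 0.78 and 0.79 on irradiated arrays of lines 1, 2 and 3 and 0.79, 0.90 and 0.77 on mock arrays, lower after 1 Gy in line 2 only. The part of RNA quality in these differences was not tested.

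In the fit over all probe sets, 2 of the 3 chosen probe sets, those of Tnfaip3 and Cdk5r1, and all 4 brighter ones were called higher after 1 Gy at an adjusted p under 0.05 (limma), while 1.93% of the 21762 probe sets tested were. The median log2 fold change was 2.68 over the chosen probe sets, or 1.93 with signals under 100 set to 100, and -0.06 over all probe sets tested. The same arrays chose the genes and the rule fixed their direction, so nothing is read from these counts or medians. When the fit took the line as a block, all 3 chosen probe sets were called, and so were 18.3% of all probe sets tested (1475 higher and 2499 lower). Without either array of line 2, or the irradiated array of line 1 or of line 3, 0 of the 3 were called, and without the mock array of line 1 or of line 3, 1 was. Of the 4 brighter ones, 0 were called without either array of line 2, 1 without the irradiated array of line 1 or of line 3, 2 without the mock array of line 1 and 3 without that of line 3. Few probe sets of the whole array were called in these fits. The number was 0 without either array of line 2, and 10 and 13 without the irradiated array of line 1 and of line 3. Without the mock array of line 1 it was 120, and without that of line 3 it was 56. Without a filter on low signals, none of these 7 probe sets was called, and 1 of all 45037 was.

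Few probe sets on the array behaved like the chosen ones in all lines. In lines 1, 2 and 3 taken singly, 69, 139 and 92 probe sets went from under 100 at 0 Gy to 200 or more at 1 Gy, and 148, 128 and 157 went the other way. In all 3 lines at once, 15 crossed upward and 13 downward. Of the 24000 probe sets under 100 on all mock arrays, 23932 reached 200 on none of the irradiated arrays, 33 reached it in 1 line, 20 in 2 lines and 15 in 3 lines. The signal of 100 is a threshold of the rule and no detection call. Of 48 genes restricted to other tissues such as liver, muscle or retina, 42 read under 100 on all mock arrays by their brightest probe set, and 0 of the 48 crossed both thresholds. Of 66 genes that mark T and NK, myeloid, erythroid or stromal cells, 55 read under 100 on all mock arrays, 12 were bright enough to test, and 0 of these were called higher or lower (limma), with 3 at an unadjusted p under 0.05.

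**Figure D3:**
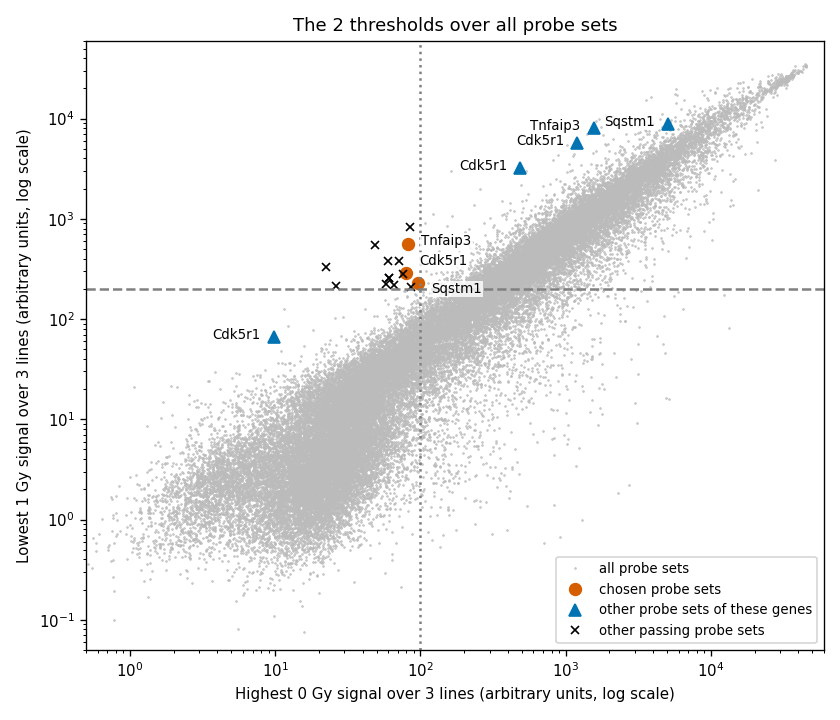
Lowest 1 Gy signal over the 3 lines (vertical axis) against the highest 0 Gy signal over the 3 lines (horizontal axis), both in arbitrary units on log scales, for all 45037 probe sets. The upper left corner beyond the dotted line at 100 and the dashed line at 200 holds 15 probe sets, the 3 chosen ones (circles) among them, while the triangles of the other probe sets of Tnfaip3, Cdk5r1 and Sqstm1 lie outside it.

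The edges of the rule were close on both sides. Just inside, Sqstm1 had a mock signal of 95.8 and an irradiated signal of 229, Tnfaip3 a mock signal of 81.8 and Cdk5r1 an irradiated signal of 288. Just outside at the lower dose stood Creb1, with a highest mock signal of 109.8 and 299 to 316 after 1 Gy, Pcgf5, with 113 and 226 to 503, and Marchf3, with 121 and 231 to 914. Just outside at 1 Gy stood Lzts3, whose lowest irradiated signal was 192, Aen, with 177, and Inka2, with 176. Creb1, Pcgf5 and Aen, like the 3 chosen genes, had another probe set that read above 100 on all mock arrays, while Lzts3, Inka2 and Marchf3 had none.

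Tnfaip3 belongs to a list of 75 NF-κB pathway and target genes, 67 of which are named on the array. Of these, 25 read under 100 on all mock arrays by their brightest probe set, and 4 of those also read 200 or more on all irradiated arrays. All 4 are among the genes left out by name. Of the 48 that were bright enough to test, 22 were called higher and 0 lower (limma), against 2.11% of 9678 genes called higher and 3.20% called lower overall. The median log2 fold change was 1.37 over the 48 and -0.11 over all genes. A gene could enter this test through its irradiated arrays alone. The list also holds Tnfaip3 and the 4 left-out genes that passed the thresholds on these same arrays, so nothing is read from the counts or the median. In the fit with lines as a block, 36 were called higher and 0 lower, and without single arrays 0 to 8 and 0, with 32 to 37 at an unadjusted p under 0.05. Over all 21762 probe sets tested, the block fit called 1475 higher and 2499 lower (18.3% together). The fits without single arrays called 0 to 73 probe sets higher and 0 to 47 lower. Tnfaip3 was also on a list of immediate early genes, of which 14 of 47 were called higher and 1 lower. Of 41 p53 target genes tested, 3 were called higher and 1 lower, with a median log2 fold change of 0.53. None of the 45 on the array crossed both thresholds, and only 5 of them read under 100 on all mock arrays by their brightest probe set. Of 80 cytokine, chemokine and TNF ligand genes on the array, 61 read under 100 on all mock arrays and 1 crossed both thresholds, also a gene left out by name. Neither Cdk5r1 nor Sqstm1 was on any of the lists.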

How the data were processed

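RNA from 3 lines at 2 doses was measured on 6 Affymetrix mouse arrays. The authors deposited linear intensity signals per probe set, and MAS5 is the method in the submitters' processing notes. Trimmed means, which drop the outer 2% at each end, were 497 to 498, median signals were 51.6 to 59.4 (59.35), and 41.7% to 43.8% of probe sets reached 100. RMA and quantile normalization, which the study's methods name, are not part of these values. Precision is limited by the number of arrays.

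Control probe sets (64) were left out. Names came from the platform annotation, in which 34945 of 45037 probe sets have 1 gene name. The rule was applied to the signals as deposited. Signals under 1 were set to 1 before log2. The 21762 probe sets that reached 100 on any array were tested with limma 3.58.1 in R 4.3.3, 1 Gy against 0 Gy without other factors, with Benjamini-Hochberg adjustment over all of them, and the fit was checked on simulated data. Gene calls used the brightest tested probe set. Every member is named, with signals on all 6 arrays, and other genes where they lay nearest a threshold. Genes that reached 200 in 2 of 3 lines were named outside this rule, after their values were seen. The members and lists were chosen with earlier results of these data known.

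The replicate numbers mark the cell lines per the labels' design text. Deviations from group means correlated at 0.668 to 0.781 between same-numbered arrays and at -0.495 to -0.05 between others, so the line was also fitted as a block. Promoter windows came from RefSeq (GRCm38.p6) and matched 2 of the 3 genes. Alternatives were other thresholds, scalings, offsets, probe set choices, filters and left-out arrays.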

Additional observations from a re-analysis of the deposited data

How the results depend on the processing

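The count of 3 genes depends on the rule's settings. It was 3, and the same 3 genes, after quantile normalization and after scaling to a common median. It was also 3 without probe sets shared between transcripts, which could not change it, since none of the 3 chosen ones is of that kind. It was 1 (Tnfaip3) with a minimum of 400 at 1 Gy, 0 with a maximum of 50 at 0 Gy, 64 with a maximum of 200 at 0 Gy and 0 where the brightest of all probe sets of a gene had to cross. Without single arrays or lines it was 5 to 13. Fewer arrays then had to pass, so the 3 genes were bound to be included each time. The median log2 fold change of the chosen probe sets (2.68) was 1.93 with signals under 100 set to 100, 2.39 with log2 of the signal plus 16 and 2.94 with a gene's probe sets averaged, and 2.65 to 2.71 without single lines. Apart from the average, this median of 3 was each time the value of 1 probe set, that of Cdk5r1 (1421124_at). Without single lines, the chosen probe set of Tnfaip3 gave 3.27 to 3.45 and that of Sqstm1 gave 1.37 to 2.10. Of 56 values of single probe sets under these alternatives, 55 were positive. The other was the Cdk5r1 probe set that stays under 100, which a floor of 100 sets to 0. The rule fixed the direction of the chosen probe sets, so their part of this count shows nothing further.

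With limma, the 2 called of 3 became 0 without a filter on low signals and 0 to 1 without single arrays (0 and 0 to 3 of the 4 brighter ones), and 3 under the other scalings, the offset of 16, the floor of 100, a stricter filter and the trend. The cell line as a block gave 3 of 3, and 3974 of all probe sets against 975 without it, and changed no other call on the members. All probe sets called numbered 1 without the filter (5391 at an unadjusted p under 0.05), 643 after median scaling (369 higher and 274 lower, against 419 and 556), 1476 with signals under 100 set to 100, 1515 with a trend in the variance prior and 0 to 120 without single arrays, where 3748 to 4618 had an unadjusted p under 0.05. All probe sets called also numbered 958 after quantile normalization, 1100 with the offset of 16 and 1354 with the stricter filter. The cause of these changes was not tested.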

Other observations

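A further 16 named genes had a probe set under 100 on all mock arrays that reached 200 or more in 2 of the 3 irradiated lines. They were singled out after their values were seen, and 3 of them, Id2, Ncf1 and Tanc1, have another probe set above 100 on all mock arrays. The line that stayed under 200 was line 1 for 5 of them, line 2 for 6 and line 3 for 5. Samd11 read 475, 1843 and 53.9 in irradiated lines 1, 2 and 3, against 73.8, 83.5 and 32.8 in mock-irradiated ones, so that line 3 stayed low at both doses. Rab30, a small GTPase of the Golgi, likewise read 353, 676 and 64.9 after 1 Gy and 62.3, 60.8 and 72.0 after mock irradiation. Line 2 was the low one for Il5ra, the interleukin 5 receptor chain, which read 288, 90.4 and 450.3 after 1 Gy and 6.13, 19.1 and 89.5 after mock irradiation. Adm, the precursor of the peptide hormone adrenomedullin, read 154, 200 (200.5) and 493 after 1 Gy and 23.9, 6.74 and 56.6 after mock irradiation, higher in 3 of 3 lines. These differences between lines were not tested.

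The 15 probe sets that crossed both thresholds include 4 without a gene name in the platform annotation used here. They read 210 (210.4) to 564 after 1 Gy and 45.7 to 86.8 after mock irradiation, and 1 of them (1440651_at) read 299.9, 564 and 280.4 in irradiated lines 1, 2 and 3 and 75.6, 45.7 and 55.1 in mock-irradiated ones.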
